A study of Homo sapiens with 6 samples.

Results

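The nuclear genes for subunits of respiratory complexes II, III, IV and V were described in LN229 cells with and without overexpression of LACTB. Members were the rows of the deposited table whose symbol matched SDHA to SDHD, CYC1, or the UQCR, COX4 to COX8 and ATP5 families, and no matched row was an annotated pseudogene. This gave 47 of 24480 gene symbols, namely 4 genes of complex II, 10 of complex III, 14 of complex IV and 19 of complex V. LN229 is an established human glioblastoma line. RNA-seq libraries came from cells transduced with vector (3 libraries) and from cells transduced to overexpress LACTB (3 libraries), a mitochondrial serine beta-lactamase-like protein, and the comparison asked which genes LACTB changes in glioma cells. No label gives the promoter of the construct, the time after transduction, or whether the cells were clones or pools. It is also not stated whether replicate libraries were grown as separate cultures. The p-values therefore cover only the variation among these 6 libraries, and that variation may be technical.

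The respiratory chain passes electrons to oxygen along complexes in the inner mitochondrial membrane. Complex II oxidises succinate and hands electrons to ubiquinone, complex III passes them from ubiquinol to cytochrome c, and complex IV uses them to reduce oxygen. Complexes III and IV pump protons, and complex V, the ATP synthase, lets protons flow back and makes ATP. The mitochondrial genome encodes a few core subunits of complexes III, IV and V, and all other subunits, including every subunit of complex II, are made from nuclear genes.

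Values are normalized read counts as deposited, and differences are LACTB minus vector on the scale of log2(value + 1). LACTB itself stood at 458, 515 and 393 normalized counts in vector libraries 1 to 3 and at 4268, 4078 and 4203 in LACTB libraries 1 to 3, so the libraries matched their labels for this gene. Column totals ran from 34907394 to 41384595 and were lower in every LACTB library than in any vector library. Of the glioma and neural markers, SOX2 rose from a mean of 1131 to 2674, VIM from 25367 to 35300, CD44 from 15011 to 19670 and GFAP from 74.5 to 122. S100B fell from 33778 to 14499 and OLIG2 from 445 to 302, and NES (33779 and 38875) was not called. Of the markers of other cell types, PTPRC (leukocytes), EPCAM (epithelium), RBFOX3 (neurons), MLANA (melanocytes) and CKM (striated muscle) were under the filter for testing. PECAM1 (endothelium) stood at 44.9 and 47.1. The oligodendrocyte genes went opposite ways, MBP from 398 to 51.8 and MOG from 191 to 332, and the melanocyte gene PMEL went from 383 to 101. The part of these genes in the results below was not tested. In bulk RNA, fewer cells of a kind and less RNA per cell cannot be told apart.

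Subunit transcripts were broadly lower with LACTB. A gene was tested if its mean was at least 1 CPM (37.7 normalized counts), which 43 of the 47 members met (the other 4 were COX6B2, COX7A1, COX7B2 and ATP5MGL), and it was called if its limma adjusted p, over all 12939 genes tested, was under 0.05. Of the 43, 34 fell, none rose and 9 were not called, against 24.6% of all tested genes called lower, 27.4% called higher and 51.9% called in either direction. The median log2 difference of the tested members was -0.60, against 0.05 over all tested genes. The range ran from -1.29 for ATP5F1E to 0.28 for ATP5PB. In 36 of the 43 members all 3 LACTB libraries lay below all 3 vector libraries, which held for 28.7% of tested genes. Falls were found in 1 of 4 tested genes of complex II, 6 of 10 of complex III, 10 of 11 of complex IV and 17 of 18 of complex V, with medians of -0.18, -0.52, -0.61 and -0.63. Whether the complexes differ from each other was not tested. Many of these genes have processed pseudogenes or overlapping neighbours, and since the counting method and its strand setting are not known, reads may be shared between them.

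**Figure D1:**
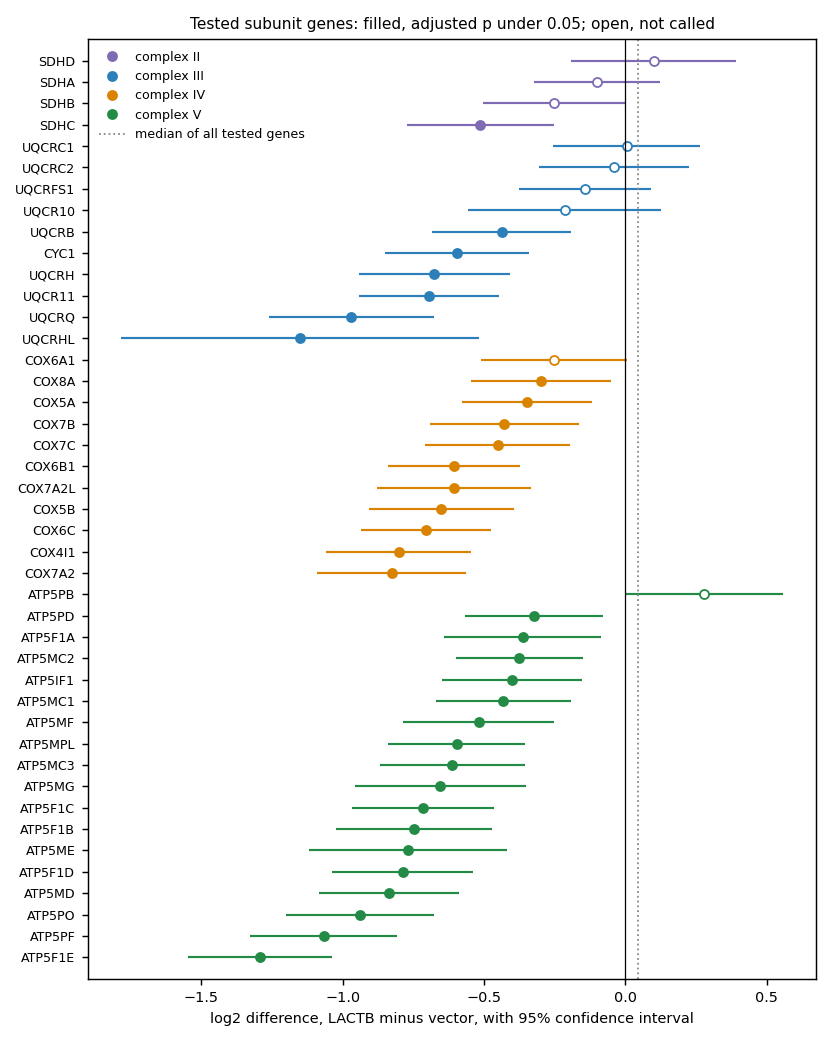
Log2 difference (LACTB minus vector, x axis) of each tested subunit gene with its 95% confidence interval, coloured by complex, filled where the adjusted p was under 0.05 and open where not. The 34 filled points lie left of 0, and the 9 open points are SDHA, SDHB, SDHD, UQCRC1, UQCRC2, UQCRFS1, UQCR10, COX6A1 and ATP5PB.

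The members are mostly short and highly expressed, and genes of that kind were lower as a whole. Of the 43, 27 lay in the shortest of 5 equal bins of tested genes by longest transcript, where the median of all genes was -0.27 and 41.3% were called lower. By mean level, 37 of the 43 lay in the highest of 5 equal bins, where the median was -0.22 and 43.7% were called lower. Among the 629 other genes in both of these bins the median was -0.41 and 65.3% were called lower, while the 23 members in both had a median of -0.65 and 20 of them were called lower. With the trend on transcript length and GC content removed from every library, 31 members were lower, 1 was higher and the median was -0.43. Of all 12710 genes tested that way, 3166 were lower and 3016 higher. With the median length and GC of each gene's protein-coding transcripts in place of the longest transcript, 24 members were lower and 3 (SDHD, UQCRC1 and COX8A) higher. Over all genes, 3171 of 12710 were then lower and 3003 higher.

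**Figure D2:**
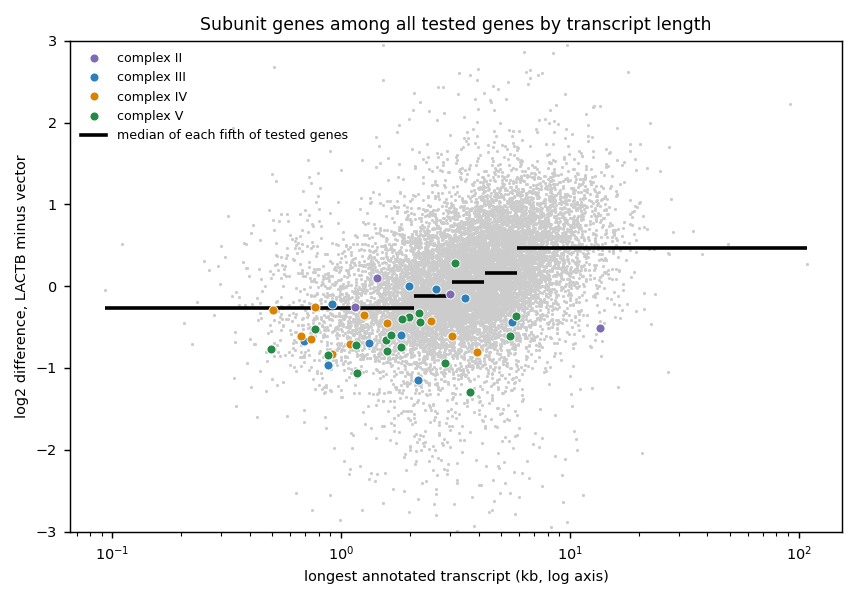
Log2 difference (LACTB minus vector, y axis) against the longest annotated transcript (kb, log x axis) for all tested genes within 3 log2 units of 0 (grey) and for the subunit genes (coloured by complex), with black bars at the median of each of 5 equal bins by length. The bars climb from -0.27 in the shortest bin to 0.46 in the longest, and most subunit genes lie below the bar of their longest transcript. For some members the longest transcript far exceeds the median protein-coding transcript, as for SDHC (13566 against 460 bases) and UQCRB (5575 against 645 bases). Such genes are placed further right than their median transcript would put them.

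The direction of calls over all genes turned with the scaling of the libraries, while falls outnumbered rises among the members under each scaling run. With all columns scaled to equal totals, the median of all genes shifted from 0.05 to 0.24 and higher genes made up 72.3% of calls, against 52.7% as deposited and 39.3% with median centring and 49.4% with quantile normalization. Under equal totals 24 members fell and 1 rose, with a median of -0.40, while 1905 of all 12950 genes tested fell and 4984 rose. Median centring gave 36 falls and no rise, and quantile normalization 27 falls and 1 rise. Over all 12939 tested genes, median centring gave 4148 falls and 2684 rises, and quantile normalization 3296 and 3214. Of the 34 falls as deposited, 17 were called under every one of the 18 alternatives run: UQCRH, UQCRQ, UQCR11, COX4I1, COX5B, COX6C, COX7A2, COX7A2L, ATP5F1B, ATP5F1C, ATP5F1E, ATP5PO, ATP5PF, ATP5MC3, ATP5MG, ATP5MD and ATP5MPL. UQCRHL was called under the 17 in which it was tested, and it was below the filter at 5 CPM. How many of all tested genes were called under every alternative was not counted.

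**Figure D3:**
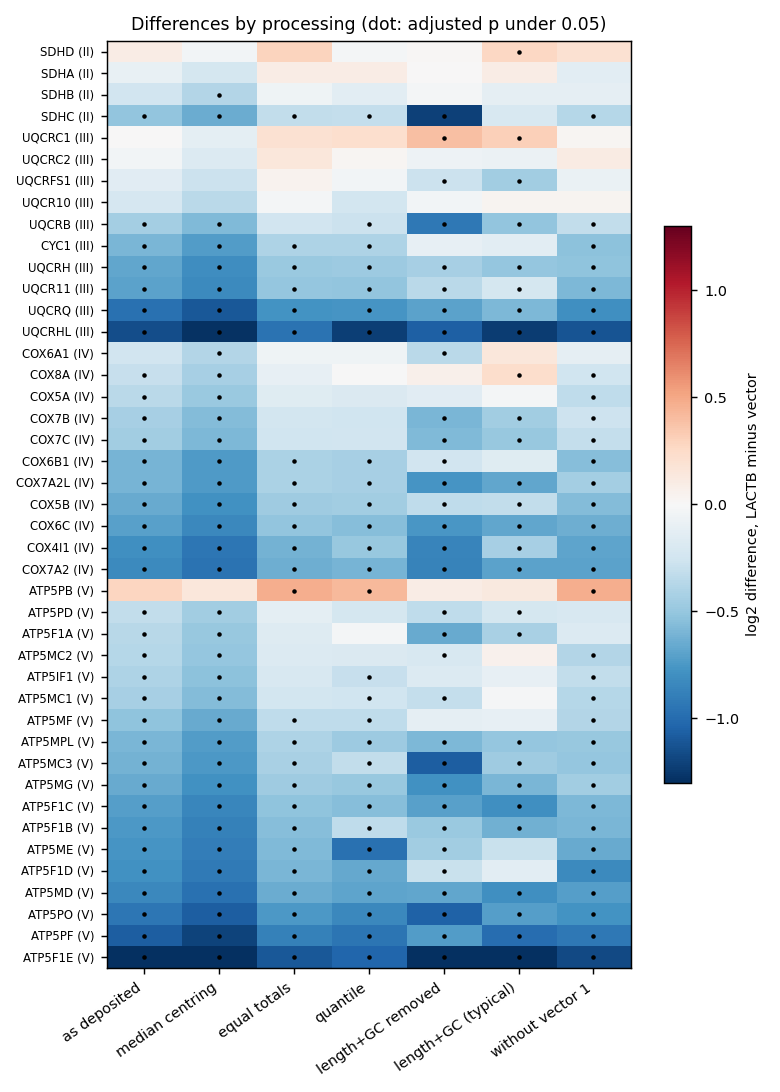
Log2 difference (LACTB minus vector, colour) of each tested subunit gene (rows, complex in brackets) under 7 ways of processing (columns), with a dot where the adjusted p was under 0.05. Most rows are blue in every column, while SDHA, SDHD, UQCRC1, UQCRC2 and ATP5PB are pale or red in several.

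The vector libraries differed among themselves, and the subunit genes moved together in them. Vector library 1 was the highest of the 3 in 35 of the 43 tested members, against 36.7% of all tested genes, and vector library 2 was the lowest in 38 of the 43, against 29.5%. The median coefficient of variation of the members was 16.7% over the vector libraries and 4.50% over the LACTB libraries, against 14.1% and 7.05% over all tested genes. Without vector library 1, 32 members fell, ATP5PB rose and the median was -0.44, while 3438 of all 12934 genes tested fell and 3881 rose.

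**Figure D4:**
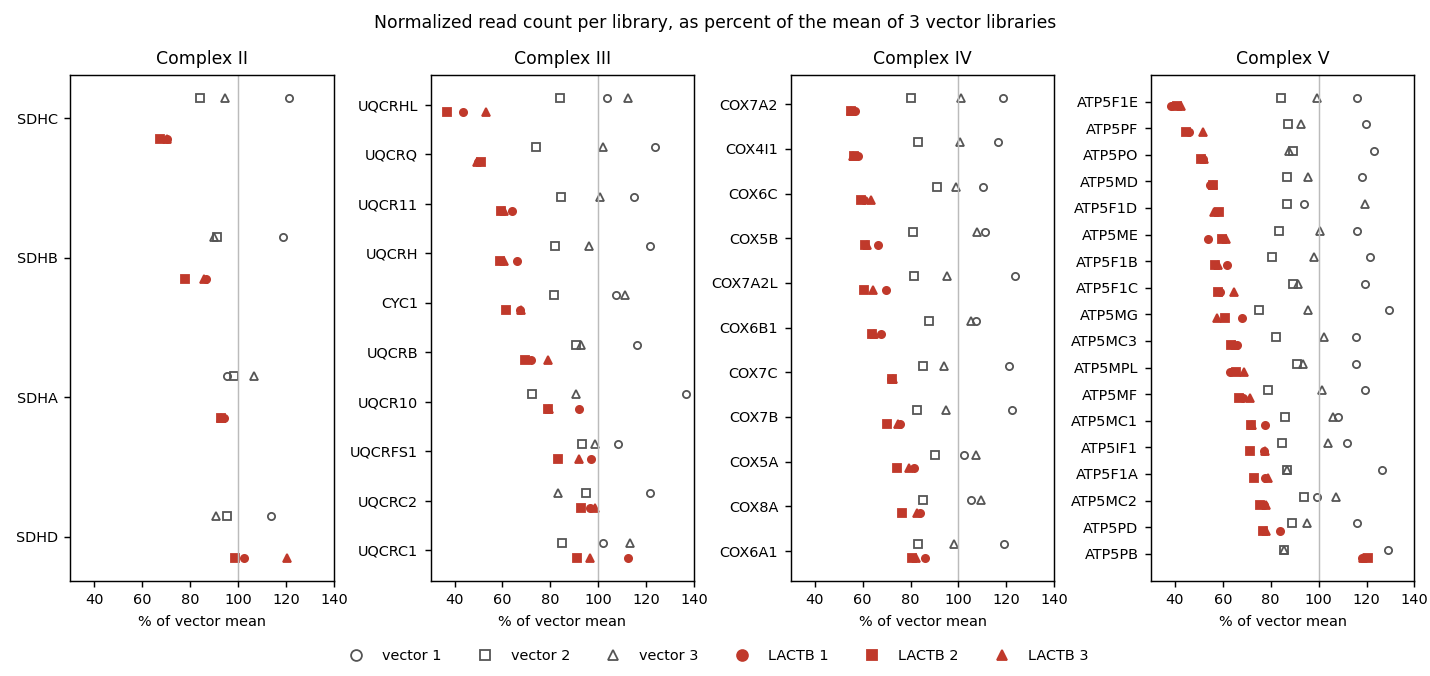
Normalized read count of each tested subunit gene in each of the 6 libraries, as percent of the mean of the 3 vector libraries (x axis), in 1 panel per complex (open grey, vector; filled red, LACTB; the symbol marks the library number). LACTB libraries cluster tightly and lie left of the vector libraries for most genes, and vector library 1 (open circle) is most often the rightmost.

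Summed over each complex, the nuclear subunits took a smaller share of the column with LACTB. For complex V the share was 0.684%, 0.524% and 0.563% in vector cells and 0.425%, 0.415% and 0.429% with LACTB. Complex IV took 0.416%, 0.330% and 0.368% against 0.291%, 0.281% and 0.289%, and complex III took 0.239%, 0.186% and 0.213% against 0.179%, 0.164% and 0.172%. Complex II took 0.0831%, 0.0714% and 0.0715% against 0.0683%, 0.0669% and 0.0696%. No LACTB library reached the lowest vector library in any of these 4 sums, though for complex II the nearest pair lay at 0.0696% and 0.0714%. These shares count reads and are not corrected for transcript length. The complex II sum was led by SDHC, the highest of its 4 genes in every library and the 1 that fell. With equal column totals the log2 differences of SDHA, SDHB and SDHD were 0.093, -0.060 and 0.29, none of them called.

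**Figure D5:**
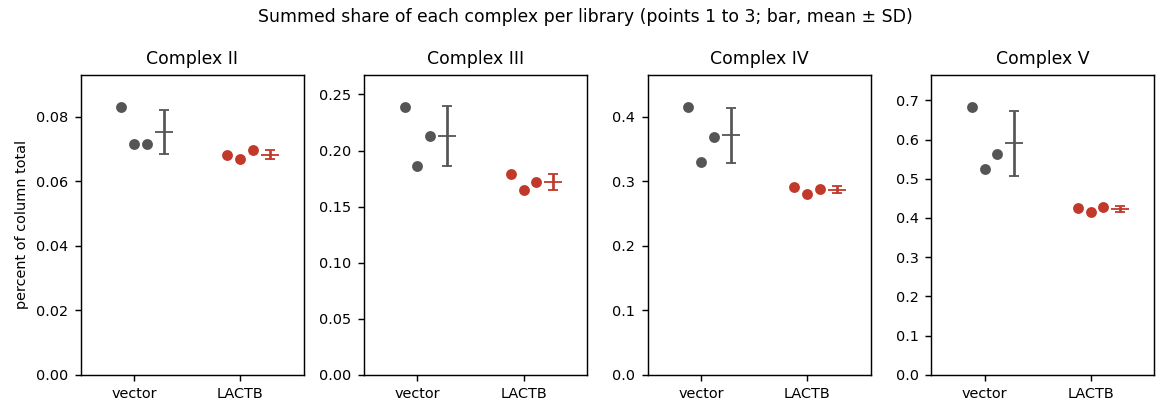
Summed normalized read counts of the nuclear subunit genes of each complex as percent of the column total (y axis from 0) in vector and LACTB libraries 1 to 3, with the mean and SD of each group. All LACTB points lie below all vector points in each panel, with the nearest pair at 0.429% and 0.524% for complex V and at 0.0696% and 0.0714% for complex II. The complex II sum is led by SDHC, the 1 gene of that complex that fell.

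Promoter sequences of the members were taken from RefSeq (GRCh38.p14), as windows of 300 bases that lie mostly before a gene's annotated start. Of the 47 members, 36 matched, with 42 windows between them, since some genes have several starts. The cores of NRF1, ETS and YY1 sites, known from promoters of respiratory genes, and the CCAAT box were searched on both strands. The ETS core CCGGAAG stood in 17 of the 42 windows (40.5%), against 10.3% of all 35116 windows. The NRF1 core GCATGCGC stood in 9 (21.4%, against 3.05%), the YY1 core AAGATGGCG in 4 (9.52%, against 1.75%) and the CCAAT box in 18 (42.9%, against 34.6%). The background holds all RefSeq genes, non-coding ones included, and base composition was not matched. Among matched members, 13 of the 25 that fell and 3 of the 9 not called held the ETS core, and 5 and 3 held the NRF1 core. The 150 bases before the RefSeq start are shown for a pair of members that fell (UQCRQ and ATP5F1E) and a pair not called (SDHD and COX6A1). Motif matches on either strand are in capitals. GENCODE, which gave the gene positions printed below, starts these genes further upstream, so the 150 bases partly overlap those positions.
UQCRQ, chr5:132866492-132866641, plus strand: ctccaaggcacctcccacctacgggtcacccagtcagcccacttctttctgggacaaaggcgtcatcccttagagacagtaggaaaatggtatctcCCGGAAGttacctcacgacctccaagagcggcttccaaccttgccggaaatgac
ATP5F1E, chr20:59032336-59032485, minus strand: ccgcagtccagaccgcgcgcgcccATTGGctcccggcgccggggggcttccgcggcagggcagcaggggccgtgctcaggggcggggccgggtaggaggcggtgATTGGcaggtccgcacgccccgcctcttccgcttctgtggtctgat
SDHD, chr11:112086723-112086872, plus strand: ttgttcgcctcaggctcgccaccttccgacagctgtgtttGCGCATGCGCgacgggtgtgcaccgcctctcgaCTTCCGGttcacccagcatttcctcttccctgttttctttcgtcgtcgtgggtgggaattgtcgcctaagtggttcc
COX6A1, chr12:120437963-120438112, plus strand: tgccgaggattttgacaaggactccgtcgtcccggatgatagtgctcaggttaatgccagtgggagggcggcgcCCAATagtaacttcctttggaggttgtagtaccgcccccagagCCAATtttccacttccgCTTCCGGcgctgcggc
UQCRQ held 1 ETS core, read forward as CCGGAAG. The capitals in ATP5F1E are a pair of CCAAT boxes on the opposite strand (ATTGG). SDHD held overlapping NRF1 cores on both strands, written GCGCATGCGC, and an ETS core on the opposite strand (CTTCCGG). COX6A1 held a pair of CCAAT boxes and an ETS core on the opposite strand. These sequences were taken from a larger set, the members of smallest and largest p in each complex among those with 1 window. Of that set, COX4I1 (fell), UQCRC1 and ATP5PB (both not called) held no match in the 150 bases and are not shown. SDHB (not called) held an ETS core and is also not shown. Motif matches thus occurred in some members that fell and in some that were not called. A match is a description of letters, not a bound site.

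Complex II showed 1 fall among its 4 genes, against 24.6% of all tested genes called lower. SDHC (chromosome 1, 161314257 to 161375340), a membrane anchor that helps form the ubiquinone site, stood at 20214, 14040 and 15810 in vector libraries 1 to 3 and 11708, 11234 and 11730 with LACTB. It fell by 0.51 on the log2 scale (SE 0.13, limma adjusted p = 0.0018), and the groups did not overlap. This value depended on the transcript length assigned to the gene, being -1.22 with the longest transcript and -0.20 (adjusted p = 0.054) with the median transcript. SDHA, the flavoprotein that oxidises succinate, stood at 8539, 8792 and 9547 against 8448, 8304 and 8309, a difference of -0.10 (95% interval -0.32 to 0.12). SDHB, the iron-sulfur subunit, stood at 4628, 3556 and 3493 against 3374, 3028 and 3332, a difference of -0.25 (adjusted p = 0.087). For SDHA and SDHB the LACTB libraries lay just below the vector libraries, without passing the test, though SDHB was called lower with median centring (-0.38, adjusted p = 0.015). SDHD, the other membrane anchor, stood at 923, 774 and 735 against 830, 798 and 975, with overlapping groups and a difference of 0.10 (interval -0.19 to 0.39), and it was called higher with the median transcript (0.27, adjusted p = 0.04). The median of complex II was near 0 with equal column totals (0.016).

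In complex III, 4 of 5 small supernumerary subunits fell, while neither of the large core subunits was called. Of all tested genes 24.6% were called lower, and 65.3% of the other genes that were both short and highly expressed. Whether these kinds of subunit differ was not tested. UQCRQ (chromosome 5, 132866560 to 132868031), a small subunit near the ubiquinone-binding core, stood at 19540, 11686 and 16104 in vector and 7828, 8018 and 7800 in LACTB libraries. The mean went from 15777 ± 3937 to 7882 ± 119 (SD, n = 3 each), a log2 difference of -0.97 (SE 0.14, limma adjusted p = 8.2e-06). UQCR11, another small subunit, stood at 11605, 8500 and 10171 against 6437, 5997 and 6129 (-0.69, limma adjusted p = 5.7e-05). UQCRH, the hinge protein between cytochrome c1 and cytochrome c, stood at 20974, 14125 and 16577 against 11353, 10159 and 10452 (-0.68, limma adjusted p = 0.00018). In all 3 genes every LACTB library was below every vector library. UQCRHL, a copy of UQCRH, stood at 74.6, 60.3 and 80.7 against 31.2, 26.5 and 38.0. Its fall of 1.15 on the log2 scale (limma adjusted p = 0.0033) is uncertain, because reads of near-identical copies may be shared in counting.

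CYC1, cytochrome c1, which passes electrons to cytochrome c, was the catalytic subunit of complex III that fell. It stood at 15112, 11454 and 15605 against 9462, 8665 and 9545 (-0.60, limma adjusted p = 0.0004). Its call was lost once length and GC were removed (-0.11, adjusted p = 0.36). Over the 50 nearest tested genes on chromosome 8 the median was -0.45, and -0.13 with length and GC removed. Around UQCRB, on the same chromosome, it was 0.22, and -0.14 with length and GC removed. The median of such neighbour medians over all tested members was -0.02. UQCRB, a small subunit that fell by 0.44, lost its call with equal column totals (adjusted p = 0.073).

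UQCRC1, one of the large core subunits facing the matrix, stood at 15599, 12969 and 17370 in vector and 17226, 13972 and 14764 in LACTB libraries. The groups overlapped throughout, and the log2 difference of 0.01 had a 95% interval of -0.25 to 0.26. With length and GC removed UQCRC1 was higher by 0.39 (adjusted p = 0.002). UQCRC2, its partner, differed by -0.04 (interval -0.31 to 0.22) and UQCRFS1, the Rieske iron-sulfur protein, by -0.14 (interval -0.38 to 0.09). UQCRFS1 was called lower once length and GC were removed (-0.27, adjusted p = 0.02). UQCR10 differed by -0.21 (interval -0.55 to 0.13), and vector library 1 alone stood well above the rest at 2377, against 1260 to 1596 in the other 5 libraries. Without vector library 2 it was called lower (-0.42, adjusted p = 0.045).

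Of the 11 tested genes of complex IV, 10 fell, each by less than 1 log2 unit. The catalytic core of this complex is mitochondrially encoded, and the nuclear subunits surround it and tune its activity and assembly. COX7A2 (chromosome 6, 75237675 to 75250323) stood at 23627, 16016 and 20166 in vector and 11316, 10990 and 10998 in LACTB libraries, a difference of -0.83 (SE 0.13, limma adjusted p = 1.6e-05). COX4I1 (chromosome 16, 85798633 to 85807044), the main isoform of a subunit linked to regulation by ATP, stood at 35953, 25633 and 31058 against 17965, 17376 and 17290 (-0.80, limma adjusted p = 1.7e-05). COX6C stood at 6847, 5663 and 6152 against 3756, 3697 and 3962 (-0.71, limma adjusted p = 2.2e-05). COX6B1, which faces the intermembrane space where cytochrome c docks, stood at 9268, 7572 and 9077 against 5844, 5531 and 5597 (-0.61, limma adjusted p = 0.00013). In each of these 4 genes the LACTB libraries were close together and below every vector library. COX6B1 lost its call with the median transcript (adjusted p = 0.06).

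The other called genes of complex IV were COX5B (-0.65), COX7A2L (-0.61), COX7C (-0.45), COX7B (-0.43), COX5A (-0.35) and COX8A (-0.30). COX7C, COX7B, COX5A and COX8A each lost the call with equal column totals, with adjusted p from 0.06 to 0.38, and again with quantile normalization. COX5A also lost it with length and GC removed (-0.15, adjusted p = 0.13), with the median transcript (-0.026, adjusted p = 0.78) and without LACTB library 2 (adjusted p = 0.09). COX8A was the least stable, losing its call without LACTB library 1, 2 or 3 or vector library 3, and standing at 0.06 with length and GC removed and at 0.23 (adjusted p = 0.015) with the median transcript. COX6A1, the isoform found outside striated muscle, was the tested gene of complex IV that was not called. It stood at 15634, 10922 and 12884 against 11329, 10594 and 10840, a difference of -0.25 (95% interval -0.51 to 0.01), and LACTB library 1 lay above vector library 2. It was called lower with median centring (adjusted p = 0.021), with length and GC removed (0.0057) and without vector library 2 (0.011), but was -0.12 without vector library 1 (0.29) and stood at 0.14 with the median transcript.

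Several complex IV subunits have a second isoform, and most of these were near the floor in LN229 cells. COX7A1, the isoform of heart and skeletal muscle, stood at 0.0377, 4.35 and 3.18 in vector and 6.14, 7.04 and 1.14 in LACTB libraries. COX7B2 stood at 6.44, 13.1 and 4.34 against 1.70, 2.61 and 2.12. COX6B2, the testis isoform, was listed at 0 in LACTB library 1 and between 5.07 and 23.2 in the others. All 3 were under 1 CPM and were not tested. COX7A2L, a COX7A2 relative that links complexes III and IV into supercomplexes, was abundant, at 11511, 7570 and 8850 against 6485, 5636 and 5980. Its log2 ratio to COX7A2 in the same library, which does not depend on the scaling of the library, went from -1.10 ± 0.0776 to -0.88 ± 0.0802 (SD, n = 3 each), and the groups did not overlap. The difference in the log2 ratio COX7A2L/COX7A2 was 0.22 as deposited, 0.10 with length and GC removed and 0.015 with the median transcript. The deposited table had no row under the symbols COX4I2, COX6A2 and COX8C, so they were not analysed here.

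Complex V had 17 falls among 18 tested genes, among them the largest fall of all members tested, in ATP5F1E. All 5 genes of the F1 head fell. ATP5F1E (chromosome 20, 59025467 to 59032382), the epsilon subunit of the central stalk, stood at 32146, 23351 and 27519 in vector and 10603, 11270 and 11769 in LACTB libraries. LACTB cells held 40.5% of the vector mean, a log2 difference of -1.29 (SE 0.12, limma adjusted p = 2.7e-08). The value lay between -1.03 and -1.10 under quantile normalization and equal column totals, and at -1.62 with length and GC removed. ATP5F1B, the catalytic beta subunit, stood at 93495, 61871 and 75648 against 47527, 43524 and 44667, a difference of -0.75 (limma adjusted p = 8.6e-05). ATP5F1D and ATP5F1C, the other central stalk subunits, fell by 0.79 and 0.71 on the log2 scale, and ATP5F1D lost its call with the median transcript (adjusted p = 0.11). ATP5F1A, the alpha subunit, stood at 33752, 23124 and 23195 against 20760, 19435 and 21082 (-0.36, limma adjusted p = 0.027), and its call was lost with equal column totals (adjusted p = 0.25) and when vector library 1 (0.087), LACTB library 1 (0.054) or LACTB library 2 (0.091) was left out.

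Of the peripheral stalk, which holds the head still against the turning rotor, ATP5PF, ATP5PO and ATP5PD fell and ATP5PB was not called. ATP5PF (chromosome 21, 25716503 to 25735673), also called coupling factor 6, stood at 6485, 4713 and 5017 against 2476, 2401 and 2802 (-1.07, SE 0.12, limma adjusted p = 4.6e-07). ATP5PO (chromosome 21, 33903453 to 33915980), the oligomycin sensitivity protein at the top of the stalk, stood at 5700, 4136 and 4048 against 2385, 2363 and 2407 (-0.94, SE 0.13, limma adjusted p = 2.9e-06). Both genes lie on chromosome 21, where the 50 nearest tested genes had medians of -0.12 around ATP5PF and -0.33 around ATP5PO. With length and GC removed these were -0.28 and -0.41. Over all tested members the median of the neighbour medians as deposited was -0.02. ATP5PD fell by 0.32 (adjusted p = 0.026), a call lost with equal column totals (adjusted p = 0.33) and when vector library 1 (0.057), LACTB library 2 (0.11) or LACTB library 3 (0.094) was left out.

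ATP5PB (chromosome 1, 111448864 to 111462773), the b subunit of the same stalk, went the other way. It stood at 5675, 3759 and 3770 in vector and 5202, 5299 and 5214 in LACTB libraries. Vector library 1 stood above all LACTB libraries, and vector libraries 2 and 3 below them. The difference of 0.28 (SE 0.13) missed the threshold (limma adjusted p = 0.087). It was called with equal column totals (0.47, adjusted p = 0.0076), with quantile normalization (0.43, adjusted p = 0.012), without vector library 1 (0.48, adjusted p = 0.00021) and with the replicate block (adjusted p = 0.049). It was not called with length and GC removed (0.09, adjusted p = 0.49).

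The rotor ring of complex V is built from the c subunit, which 3 genes encode as the same mature protein with different import sequences. ATP5MC3 was the highest of the 3 in every library, at 29983, 21346 and 26535 in vector and 17094, 16498 and 16881 in LACTB libraries (-0.61, limma adjusted p = 0.00032). ATP5MC2 stood at 11640, 11011 and 12567 against 9085, 8875 and 9166 (-0.37, limma adjusted p = 0.0064), and ATP5MC1 at 6922, 5504 and 6789 against 4971, 4591 and 4614 (-0.43, limma adjusted p = 0.0035). All 3 fell without overlap of the groups, and the calls of ATP5MC1 and ATP5MC2 were lost with equal column totals (adjusted p = 0.055 and 0.11) and with the median transcript, at -0.016 (adjusted p = 0.86) and 0.057 (0.48).

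The membrane supernumerary subunits, which shape the dimer and the cristae edge, all fell where tested. ATP5MD (chromosome 10, 103389041 to 103396492), a small subunit tied to dimer stability, stood at 8115, 5959 and 6572 against 3757, 3860 and 3845 (-0.84, SE 0.12, limma adjusted p = 6.1e-06). ATP5ME fell by 0.77, ATP5MG by 0.65, ATP5MPL by 0.60 and ATP5MF by 0.52 on the log2 scale, and ATP5MF lost its call once length and GC were removed (adjusted p = 0.36), as did ATP5ME with the median transcript (0.097). ATP5MGL, a retrogene copy of ATP5MG, was at most 3.13 in any vector library and was listed at 0 in all 3 LACTB libraries, too near the floor to compare. ATP5IF1, the inhibitor that binds the head and blocks ATP hydrolysis when the membrane potential collapses, stood at 3882, 2939 and 3604 against 2678, 2482 and 2692 (-0.40, limma adjusted p = 0.0078). That call did not hold at equal column totals (adjusted p = 0.12) or after removal of length and GC (0.09). Because ATP5F1B fell further, the log2 ratio of ATP5IF1 to ATP5F1B went from -4.46 ± 0.113 to -4.11 ± 0.0516 (SD, n = 3 each) without overlap. The difference in the log2 ratio ATP5IF1/ATP5F1B was 0.35 as deposited, 0.31 with length and GC removed and 0.52 with the median transcript. With 3 libraries against 3, an exact permutation test of a single ratio cannot go below p = 0.1, so the ratios are given without a test.

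Assembly factors, which insert cofactors and join subunits, went both ways, with a negative median in each list as deposited. Of 4 complex II factors 2 fell and 1 rose, of 6 complex III factors 3 fell, of 24 tested complex IV factors 10 fell and 2 rose, and of 5 complex V factors 1 fell and 1 rose. Their medians as deposited were -0.40, -0.34, -0.25 and -0.13. For complex V the sign depended on the scaling. With equal column totals ATPAF1, ATPAF2 and TMEM70 stood at 0.97, 0.12 and 0.064, and FMC1 and DMAC2L at -0.18 and -0.16. Over all tested genes, 24.6% were called lower and 27.4% higher. The 2 complex IV factors that rose, COX18 and LRPPRC, were not called with length and GC removed (adjusted p = 0.82 and 0.56). COX14, which couples synthesis of the first core subunit of complex IV to its assembly, stood at 3845, 2731 and 3223 in vector and 1636, 1523 and 1722 in LACTB libraries (-0.99, limma adjusted p = 1.5e-06). SURF1, an assembly factor mutated in Leigh syndrome, stood at 4485, 3200 and 4372 against 2037, 2112 and 2143 (-0.92, limma adjusted p = 3.7e-06). ATPAF1, a chaperone of the F1 beta subunit, rose, standing at 1117, 979 and 1047 against 1755, 1699 and 1949 (0.78, limma adjusted p = 1.8e-05), and its call held under every alternative run. For ATPAF1 every LACTB library lay above every vector library, and for its client ATP5F1B every one lay below.

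Among the smaller factors SDHAF1 and SDHAF4, which help mature complex II, fell by 0.78 and 0.55 on the log2 scale. SDHAF1 missed the threshold with length and GC removed (adjusted p = 0.052) and SDHAF4 with equal column totals (0.063). UQCC1 and UQCC3, which act on cytochrome b, fell by 0.39 and 0.41. Both lost the call with equal column totals (adjusted p = 0.15 and 0.25). UQCC3 also lost it without vector library 1 or 3 and without any 1 of the LACTB libraries. FMC1, an assembly factor of complex V, fell by 0.37, a call that missed the threshold at equal column totals (adjusted p = 0.22), after removal of length and GC (0.22) and without vector library 3, LACTB library 1 or LACTB library 2.

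CYCS, cytochrome c itself, was not called, standing at 9107, 7727 and 7199 against 7064, 7336 and 7484 with a difference of -0.13 (95% interval -0.36 to 0.11). NDUFA4, named for complex I but a component of complex IV, differed by -0.17 (interval -0.43 to 0.09). Both groups overlapped in each gene, and both genes were called lower once length and GC were removed (-0.46, adjusted p = 0.00025, and -0.33, adjusted p = 0.0096). STOML2, an inner membrane scaffold, fell by 0.72 (limma adjusted p = 4.3e-05). HIGD1A (0.25, adjusted p = 0.16) and HIGD2A (0.16, adjusted p = 0.38), relatives linked to supercomplexes, were not called. Thus 1 of the 5 genes of this list fell, against 24.6% of all tested genes. HIGD1A was called higher with equal column totals (adjusted p = 0.023) and without vector library 1 (0.0036), and HIGD2A was called higher with length and GC removed (0.50, adjusted p = 0.0038).

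Of 9 tested regulators of nuclear respiratory genes, 1 fell, 1 rose and 7 were not called. Of all tested genes, 24.6% were called lower, 27.4% higher and 51.9% in either direction. ESRRA, the nuclear receptor ERR alpha, stood at 4706, 4695 and 5778 in vector and 3041, 2968 and 3220 in LACTB libraries (-0.71, limma adjusted p = 2.8e-05), and its call held under every alternative run, with values from -0.84 to -0.29. GABPB1, a partner of the ETS factor GABPA, was higher by 0.43 (adjusted p = 0.024). That call was lost with median centring (adjusted p = 0.1), with quantile normalization (0.19), with length and GC removed (0.96) and without vector library 3, LACTB library 1 or LACTB library 2. NRF1, the factor whose core was searched above, differed by -0.14 (95% interval -0.40 to 0.11) and TFAM, which packages and transcribes mitochondrial DNA, by 0.04 (interval -0.25 to 0.33), but TFAM was called lower with length and GC removed (-0.44, adjusted p = 0.0058) and with the median transcript (-0.38, adjusted p = 0.0093). NRF1 was called lower with the median transcript (-0.27, adjusted p = 0.042). PPARGC1A, the coactivator PGC-1 alpha, was under the filter and was not tested. It stood at 6.36, 3.42 and 5.31 in vector and at 18.4, 10.1 and 16.9 in LACTB libraries.

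The mitochondrially encoded partners of complexes III, IV and V held 2.11%, 2.04% and 2.12% of all reads in vector cells and 2.00%, 2.21% and 2.01% with LACTB. These shares overlapped between the groups, while those of the 47 nuclear genes (1.42%, 1.11% and 1.22% against 0.963%, 0.927% and 0.959%) did not. Shares are relative to the column total, which was lower in every LACTB library. On the deposited scale, used below, the log2 differences of all 6 mitochondrial genes were negative (-0.48 to -0.063). MT-CO1 was the highest of the 6 in every library. MT-ATP6 and MT-ATP8, which share a transcript and encode membrane subunits of complex V, fell by 0.48 and 0.45 on the log2 scale. MT-ATP6 lost its call with quantile normalization (adjusted p = 0.39). MT-CO2 of complex IV fell by 0.39 (adjusted p = 0.011), a call lost with equal column totals (adjusted p = 0.086) and quantile normalization (0.083), and when vector library 3 (0.06), LACTB library 1 (0.055) or LACTB library 3 (0.069) was left out. MT-CO1 (-0.063), MT-CO3 (-0.095) and MT-CYB (-0.23) were not called. MT-CO1 was called higher with quantile normalization (0.32, adjusted p = 0.0012). MT-CYB was called lower with median centring (-0.36, adjusted p = 0.031), without vector library 1 (0.044) and without vector library 2 (0.022).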

How the data were processed

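RNA was isolated with Trizol and chloroform and an NEB library construction followed, per the labels' protocols. HISAT2 and the build hg38 are named, per the submitters' processing notes. The counter, annotation, strand setting and normalization were not given in the sources used here. As deposited, the signal is 1 normalized read count per gene and library. No single step per library made more than 58.5% of low values whole (lowest 36.6%, tolerance 0.05, 10% by chance), so reads were not recovered and the depth is unknown.

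Values below 1e-10 became 0, and of 9 symbols listed more than once the row of higher mean was used. Genes above 0 then numbered 22530 in each vector library and 20803, 20494 and 23052 in LACTB libraries 1 to 3. A value of 0 may therefore not be comparable between the groups. The filter was a mean of 1 CPM or more. The log2(value + 1) values, which understate the change of low genes, were compared by limma 3.58.1 (R 4.3.3, with its trend and robust options, a two-sided test of group) with Benjamini-Hochberg adjustment. The script was tested on simulated data. GENCODE release 29 (GRCh38) gave positions, transcript lengths and GC content. The members and lists were chosen with earlier results of these data known. All members were accounted for, with values in every library for complex II, for the 4 smallest adjusted p and the largest in each other complex, and for the c subunit, inhibitor and isoform genes. In related lists the 2 smallest adjusted p were named. HIGD2A, COX18, LRPPRC, NRF1, TFAM, PPARGC1A, the other mitochondrial genes and further members were named after their values were seen. Python 3.11.15 with matplotlib 3.10.9 made the figures.

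Alternatives were median centring, equal column totals, quantile normalization, a filter at 5 CPM or none, pseudocounts of 0.1 and 1 CPM, limma without trend and robust settings, a spline on length and GC removed, the replicate number as a block, each library left out, and a threshold of 0.01. The median protein-coding transcript in the length and GC removal, and both removals for the ratios, were added after seeing the data.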

Additional observations from a re-analysis of the deposited data

How the results depend on the processing

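The number of members called lower stayed between 24 and 36 over all alternatives, and between 30 and 36 when 1 library was left out. The number called higher, 0 as deposited, was 1 with equal column totals, quantile normalization, length and GC removed and the replicate block, 3 with the median transcript, and 0 to 1 when 1 library was left out. All genes called lower fell from 3177 to 1905 with equal column totals. Deviations from the group means correlated at 0.023, 0.18 and 0.0034 between libraries of the same replicate number, for numbers 1, 2 and 3. The 0.18 was the highest of all pairs, while LACTB library 1 correlated best with vector library 3 (0.16). Deviations of 3 libraries sum to 0 within a group, so these values cannot show whether the libraries were paired. With the replicate number as a block, 34 members were called lower and 1 higher, ATP5PB.

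Signs turned mostly for genes that were not called as deposited. SDHA was 0.093 with equal column totals, 0.092 with quantile normalization, 0.0086 with length and GC removed and 0.092 with the median transcript. SDHD was -0.032 with median centring and -0.030 with quantile normalization. UQCRFS1 was 0.049 with equal totals. UQCRC1 was -0.13 with median centring, and -0.11 to 0.10 when 1 library was left out (-0.11 without vector library 2, -0.082 without LACTB library 1). UQCRC2 was 0.15 with equal totals, 0.020 with quantile normalization and -0.16 to 0.11 when 1 library was left out (0.11 without vector library 1). UQCR10 was 0.035 with the median transcript and -0.42 to 0.037 when 1 library was left out (0.037 without vector library 1), and COX6A1 was 0.14 with the median transcript. CYCS was 0.064 and NDUFA4 0.022 with equal totals, and 0.049 and 0.063 with quantile normalization. NRF1 was 0.049 and MT-CO1 0.13 with equal totals, and MT-CO3 was 0.097. With quantile normalization HIGD2A was -0.014, TFAM -0.043, MT-CYB 0.13, MT-CO1 0.32 and MT-CO3 0.13. With length and GC removed TFAM was -0.44, MT-CO1 0.045 and MT-CO3 0.034, and with the median transcript TFAM was -0.38 and MT-CO3 0.015. TFAM was -0.096 with median centring, and -0.053 to 0.20 when 1 library was left out (-0.053 without vector library 3, -0.037 without vector library 2). Among called genes, COX8A was 0.064 with length and GC removed and 0.23 with the median transcript, ATP5MC2 was 0.057 with the median transcript, and GABPB1 was -0.0071 with length and GC removed. The median of complex II was 0.016 with equal totals. The log2 ratio COX6B2/COX6B1 differed by -0.98, and by -1.93 to 0.17 when 1 library was left out (0.17 without LACTB library 1).

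When 1 library was left out, the members that lost their call were COX8A (without vector library 3 or any 1 LACTB library), ATP5F1A (without vector library 1, LACTB library 1 or LACTB library 2), ATP5PD (without vector library 1, LACTB library 2 or LACTB library 3) and COX5A (without LACTB library 2). Quantile normalization ended the calls of COX5A, COX7B, COX7C, COX8A, ATP5F1A, ATP5PD and ATP5MC2, and limma without trend and robust settings those of COX7B, COX8A, ATP5F1A and ATP5PD. The median transcript ended those of SDHC, CYC1, COX5A, COX6B1, ATP5F1D, ATP5MC1, ATP5MC2, ATP5ME, ATP5MF and ATP5IF1. For the results above that changed, the cause was not tested.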
